A study of Mus musculus with 2 samples.

Results

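The genes described here are 9 plasma membrane carriers through which activated T cells take up and exchange amino acids: Slc3a2, Slc7a5, Slc7a6, Slc7a11, Slc7a1, Slc1a5, Slc1a4, Slc38a1 and Slc38a2. They were chosen by name, and every spot that the array's annotation assigns to one of these symbols was taken. That gave 13 spots, each a different probe, out of 59305 spots, and 9 genes of 20738 with a named probe. Slc38a1 was read by 3 probes, Slc7a5 and Slc1a5 by 2 each, and the other 6 genes by 1 each.

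The samples were mouse T helper cells of the strain C57BL/6, taken from spleen as naive (CD44low, CD62Lhigh, CD25negative) CD4 T cells with a kit. One culture was labelled Gfi1 wild type and the other Gfi1 knock out. Gfi1 encodes a zinc-finger repressor of transcription. Both cultures received the same stimulation for 2 days: immobilized antibody to TCRβ, a chain of the T cell receptor (3 µg/ml), antibody to CD28 (1 µg/ml) and IL-2 (10 ng/ml), together with antibodies to IL-4 (5 µg/ml) and IFN-γ (5 µg/ml). How the Gfi1 allele was disrupted, the age of the mice and the number of mice behind each culture are not given in the sources used here. From each culture 100 ng of total RNA was labelled with Cy3 and read on 1 array. There was therefore 1 array per genotype, no spread between cultures could be measured and no test was possible. Without unstimulated cells, the effect of activation itself cannot be seen in these data.

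Each pair of signals below has the library labelled wild type first and the library labelled knockout after it. A difference is the log2 signal under the knockout label minus that under the wild type label, once each array had been scaled to its 75th percentile over probes (263 and 269 units). A probe counted as detected above the median probe of its array, which was 14.2 and 14.6 units. An SD is over the different probes of a gene within these 2 arrays. The Gfi1 probe itself, on a spot numbered above 50000, read 4260 units under the wild type label and 18100 units under the knockout label, which goes against the labels if the probe lies within the deleted part. Where the probe lies was not settled here, so the libraries are named by their labels and every direction rests on them. Xist read 447 and 3.86 units and the Y-linked Eif2s3y 2.91 and 3870 units, the pattern of female cells under the wild type label and male cells under the knockout label. Sex and genotype label therefore cannot be told apart for any gene, the transporters included. Of 21 detected CD8 T and NK cell markers 20 were higher under the knockout label, beside 41.6% of all detected genes. Their summed signals were 4197 and 9687 units, and 3037 and 6917 units without the brightest gene, Gzma. Nkg7 (968 and 2076 units) and Eomes (649 and 1843 units) made up much of the rest. Cd8a, Klrk1 and Ncr1 did not pass the floor under the wild type label and read 34.9, 18.2 and 28.3 units under the knockout label. Cd160 was lower (90.7 and 37.3 units). B cell markers were higher for 9 of 12, of which only Ms4a1 (18.9 and 221 units), Blnk (30.6 and 386 units) and Fcer2a (31.1 and 142 units) were so by at least 2-fold. Cd79a stood at 0.41 ± 0.72 over 2 probes of opposite sign, and Cd79b (-0.17) and Bank1 (-0.08) were lower. The sum of the B cell markers was 3128 and 2742 units, and 698 and 1452 units without the brightest gene, Pou2af1, which read 2430 and 1290 units. Pax5 was below the floor on both arrays. Myeloid and dendritic cell markers were higher for 7 of 12 (11610.3 and 20623 units summed, 2950 and 6023 units without the brightest gene, Ctss). Among these were Mpeg1 (11.7 and 335 units), Ly86 (51.4 and 265 units) and Cd74 (1810 and 4160 units), whereas Csf1r was level at 0.01 ± 0.19 over 3 probes. Itgam (-0.07), Adgre1 (-0.14) and C1qb (-0.36) were lower, and Cd5l read 181 and 10.2 units. Lyz2, Cd14 and Itgax were below the floor on both arrays. Of 14 CD4 T cell markers 10 were lower (288853 and 269742 units summed), beside 58.4% of all detected genes. Cd3e stood at -0.43 and Cd4 itself at -0.14 ± 0.03 (2 probes). The 4 higher ones were Trat1 (0.74), Cd2 (0.51), Thy1 (0.21) and Cd247, whose 2 probes disagreed (1.85 ± 1.99). The part of these cells in the differences below was not tested. In such bulk RNA, fewer cells of a type and less RNA per cell cannot be told apart.

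Resting T cells import little amino acid. After stimulation through the T cell receptor and CD28 they are known to raise a set of carriers that supply protein synthesis and keep the kinase complex mTORC1 active. The heavy chain encoded by Slc3a2, also known as CD98, carries no amino acids itself. It is joined by a disulfide bond to a light chain of the Slc7 family and brings it to the cell surface. Other carriers work without it. Those encoded by Slc1a5 and Slc1a4 exchange neutral amino acids in a sodium-dependent way. Those encoded by Slc38a1 and Slc38a2 take up glutamine and alanine together with sodium.

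The amino acid transporters of activated T cells were nearly level between the libraries. Of the 9 genes 8 were detected, all of them on both arrays. The count past a 2-fold difference was 0 in either direction, where 3.62% of all 13411 detected genes were higher by that much and 1.52% lower. No member reached 1.5-fold either, against 11.9% of all detected genes. Of the 8 detected members 7 reached 500 units on an array, all but Slc7a6, and 0 of these 7 passed the thresholds that 1.98% (2-fold higher), 0.234% (2-fold lower) and 5.71% (1.5-fold either way) of such genes passed. The members lay between -0.27 (Slc7a6) and 0.15 (Slc7a5), with 3 above 0 and 5 below 0, where 41.6% of all detected genes lay above 0 and 58.4% below. Their median was -0.09, beside a median of -0.05 over all detected genes. Over single probes the range was -0.36 to 0.28.

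**Figure D1:**
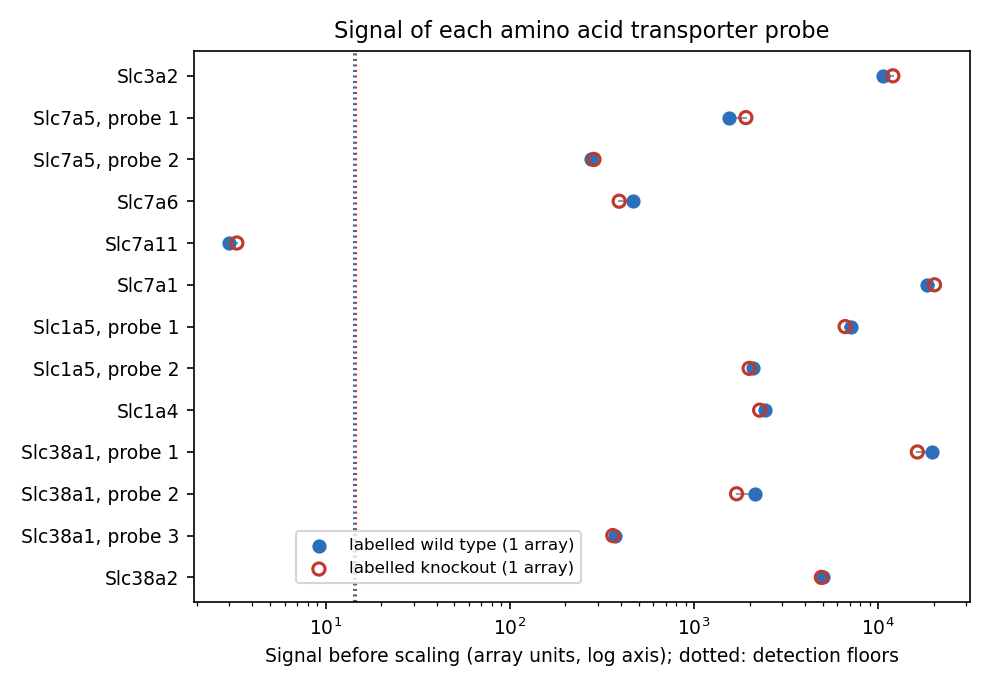
Signal of each of the 13 probes before scaling, on a log axis in array units, for the array labelled wild type (filled points) and the array labelled knockout (open points), with the detection floors of both arrays as dotted lines. The points of a probe lie close together for every gene, and Slc7a11, at 3.00 and 3.29 units, is the single gene left of the floors.

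The heavy chain gene Slc3a2 read 10600 units under the wild type label and 12000 units under the knockout label. Its difference was 0.15, a 1.11-fold ratio from a single probe. The knockout-labelled signal was the higher one, and its place among the probes was high on both arrays, at percentiles 95.2 and 95.6. Of the 6831 genes of 500 units or more on an array, 47.7% lay at least as far from 0.

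Slc7a5 encodes LAT1, the light chain that imports leucine and other large neutral amino acids in exchange for glutamine. Its brighter probe read 1540 and 1910 units, a difference of 0.28. Its dimmer probe read 276 and 286 units, a difference of 0.02, and sat on a spot with feature number 62291. Among probes of 50 to 500 units, those on spots numbered above 50000 were past 2-fold in 8.93% of cases and the others in 5.02%. Both probes leaned the same way but by unequal amounts, so that the mean of 0.15 had an SD of 0.18 over 2 probes. The difference of Slc7a5 was thus smaller than the spread between its own probes. Without late-numbered spots, which also moves the scaling, Slc7a5 stood at 0.27.

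Slc7a6 encodes y+LAT2, a light chain that exports cationic amino acids in exchange for neutral ones. The probe for it read 463 and 392 units, a difference of -0.27. This was the largest difference of any member, and 32.7% of all detected genes lay at least as far from 0. Slc7a6 and the heavy chain gene Slc3a2 thus stood on opposite sides of 0, -0.42 apart (Slc7a6 minus Slc3a2). For Slc7a5 and Slc3a2 the values nearly coincided, at 0.15 each.

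Slc7a11 encodes xCT, the light chain that imports cystine in exchange for glutamate and so feeds the synthesis of glutathione. Its probe read 3.00 and 3.29 units, below the floor on both arrays and near percentile 10.7 and 10.5 of the probes. No fold is given for it. The probe shows that no signal above the floor was measured, and with 1 probe this does not show that the transcript was absent.

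The promoter of Slc7a11 is shown because it carries, in both orientations, the motif TGATGNAA, the C/EBP-ATF response element. ATF4, the transcription factor that is translated when amino acids run short, is known to bind this element with a C/EBP partner and to switch on carriers and enzymes of amino acid supply. The sequence ends at the base before the transcription start in RefSeq, build GRCm38.p6, chr3:50443614-50443699, minus strand, and the capitals mark both motif copies, which begin at positions -66 and -47.
Slc7a11: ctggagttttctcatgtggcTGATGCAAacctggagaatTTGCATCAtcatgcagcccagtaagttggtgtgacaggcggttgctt

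Slc7a1 encodes CAT1, the importer of arginine and lysine, which needs no heavy chain. Its probe read 18500 and 20200 units, a difference of 0.09. The signals were among the brightest of the set, and 64.3% of genes of 500 units or more lay at least as far from 0.

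Slc1a5 encodes ASCT2, which exchanges glutamine and other neutral amino acids. Its 2 probes read 7080 and 6610 units, and 2100 and 1990 units. The differences were -0.13 and -0.11, with a mean of -0.12 ± 0.02 (SD over 2 probes). Both probes were slightly lower in the library labelled knockout and agreed more closely than those of Slc7a5 or Slc38a1.

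Slc1a4 encodes ASCT1, which carries alanine, serine and cysteine. It read 2430 and 2270 units, a difference of -0.13. The difference was close to that of its paralogue Slc1a5, with 0.01 between them (Slc1a5 minus Slc1a4). Slc1a4 is the other member whose promoter window held the motif. It is shown with chr11:20332699-20332728 of GRCm38.p6, minus strand, where the motif begins at position -4 and runs across the transcription start.
Slc1a4: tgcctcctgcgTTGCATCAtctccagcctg

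Slc38a1 encodes SNAT1, a sodium-coupled importer of glutamine. All 3 of its probes were lower under the knockout label. They read 19500 and 16300 units, 2130 and 1700 units, and 370 and 362 units. The differences were -0.29, -0.36 and -0.06, with a mean of -0.24 ± 0.15 (SD over 3 probes). The dimmest probe differed least, and the mean exceeded the spread between probes. Of genes of 500 units or more 26.7% lay at least as far from 0.

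Slc38a2 encodes SNAT2, a close relative of SNAT1 that is known to increase when cells are short of amino acids. It read 5000 and 4910 units, a difference of -0.06. This was the smallest difference of the detected members, and it passed 0 with cyclic loess scaling (0.001245), a setting that also moved the median of all genes by 0.06. Slc38a1 lay below Slc38a2 by a difference of -0.18 (Slc38a1 minus Slc38a2).

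**Figure D2:**
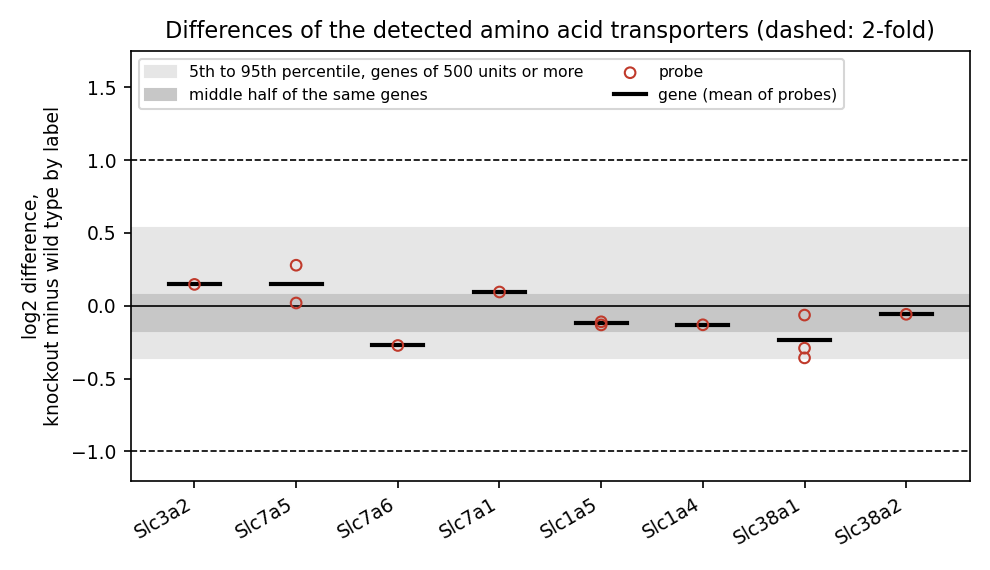
Log2 difference, knockout label minus wild type label, of the 8 detected transporters, with 1 open point per probe and a bar for the mean of a gene's probes. Grey bands give the interquartile range and the 5th to 95th percentile of the 6831 genes of 500 units or more, from -0.36 to 0.54, and every transporter bar lies inside the wider band and far from the dashed 2-fold lines.

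The spots give a scale for these small differences. Probes printed on 10 spots had a median SD of the difference of 0.12 between 50 and 500 units, 0.05 between 500 and 5000 units and 0.04 above 5000 units. The differences of Slc3a2, Slc7a6, Slc7a1, Slc1a5, Slc1a4, the brighter Slc7a5 probe and the 2 brighter Slc38a1 probes were larger than this spot noise. That of Slc38a2 was close to it, and those of the dimmer Slc7a5 probe and the dimmest Slc38a1 probe were below it. Spot noise covers printing and reading within the arrays. It says nothing of how far 2 cultures of 1 genotype would lie apart, and no value here measures that.

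Other carriers of amino acids were mostly dimmer than 500 units, where probes scatter more. Of 51 further carriers on the array 26 were detected, of which 9 were higher and 17 lower, with a median of -0.10. Over all detected genes 41.6% were higher and 58.4% lower. The 7 further carriers that reached 500 units, as 7 of the 8 detected members did, had a median of 0.08, with 4 higher. Slc15a3, a lysosomal carrier of histidine and small peptides, was the single gene at least 2-fold higher, at 289 and 905 units (3.06-fold). Slc1a2, a glutamate carrier best known from brain, was the single one at least 2-fold lower, at 220 and 87.0 units (difference -1.37), with its 2 other probes below the floor on both arrays. In the background 3.62% and 1.52% of detected genes passed the same thresholds. Slc16a10, which carries aromatic amino acids, stood at -0.89 ± 0.24 over 2 probes.

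Slc7a3 and Slc7a7, relatives of the members in the Slc7 family, stood further from 0 than any member did. Slc7a3, an arginine and lysine carrier like Slc7a1, read 937 and 1410 units, a difference of 0.56 against 0.09 for Slc7a1. Slc7a7 encodes y+LAT1, a light chain of CD98 with the same exchange as that of Slc7a6. It read 211 and 393 units, a difference of 0.86 that was 0.55 with the floor at the 75th percentile, where Slc7a6 stood at -0.27. Slc7a7 is also found in myeloid cells, whose markers are given above, and the part of such cells was not tested. Slc6a9, a glycine carrier, stood at 0.44 ± 0.12 over 2 probes.

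The sensors and the kinase complex that read amino acid supply had a median close to level, as the transporters did, but single genes spread wider, from -1.09 to 1.21. Past 1.5-fold were 5 of them, against 11.9% of all detected genes. Past 2-fold 1 was higher and 1 lower, against 3.62% and 1.52%. Of 41 detected genes of mTORC1 and its amino acid sensing arm 18 were higher and 23 lower, beside 41.6% and 58.4% of all detected genes. Their median was -0.05, which cyclic loess scaling turned to 0.02. Castor1, an arginine sensor that restrains mTORC1, read 157 and 372 units (2.32-fold higher under the knockout label), and Rragb, a Rag GTPase, stood at -1.09 on a dim late-numbered spot. Tsc2 (-0.88) and Fnip1 (0.69), both on late-numbered spots, and Sesn1 (-0.66) were also past 1.5-fold. Mtor stood at -0.04, Rptor at -0.18 and Rheb, the GTPase that activates mTORC1, at 0.21 ± 0.05 over 2 probes.

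Genes of the response to amino acid shortage were higher for the most part, unlike the transporters. Of 31 detected genes of this list 24 were higher and 7 lower, with a median of 0.24 beside -0.05 over all detected genes, of which 41.6% were higher. Of the 31 genes 3 were at least 2-fold higher and 0 lower by that much, against 3.62% and 1.52% of all detected genes. Atf3, a transcription factor that many other stimuli also induce, read 210 and 1980 units (9.22-fold). Vldlr, a lipoprotein receptor, read 117 and 337 units, and with the floor at the 75th percentile it was no longer past 2-fold (0.33). Nupr1, a stress-induced chromatin protein, read 325 and 742 units. Asns, which makes asparagine, stood at 0.58 (12600 and 19300 units) and Trib3, a pseudokinase that restrains this response, at 0.57. Atf4 itself stood at 0.05 ± 0.03 over 2 probes, and Eif2ak4, which encodes the kinase GCN2 that senses uncharged tRNA, at -0.18. Stc2 and Cbs were the lowest, at -0.76 and -0.75. Of the marker lists given above, 20 of 21 genes (CD8 T and NK cells), 9 of 12 (B cells) and 7 of 12 (myeloid and dendritic cells) were higher under the same label. The part of such cells in these values was not tested.

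The same motif as in Slc7a11 and Slc1a4 was searched for in every RefSeq promoter window of 300 bases, 250 before the start and 50 from it on, as TGATGNAA and its reverse complement TTNCATCA. This search was chosen after the values had been seen. It matched 3.97% of 32851 windows, and 4.51% of 27025 genes had a match in a window. Of the 9 transporters 6 had a window in the table, and 2 of these held the motif. The shortage-response genes were listed as the response through GCN2 and ATF4. Because ATF4 is known to bind this motif, a high share with it comes with that choice of list. Among them 8 of 28 with a window held the motif. Of these Fgf21 was below the floor, and the other 7 stood between 0.30 (Chac1) and 3.20 (Atf3) with a median of 0.60. The 20 detected genes of the list with a window but no match had a median of 0.14. Ndrg1 (0.77), Eif4ebp1 (0.38), Cth (0.25) and Ppp1r15b (0.05) had no window and are in neither group. Over all detected genes with a window, the 322 with the motif had a median of 0.01 and the 10702 in all a median of -0.06, and 6.52% against 3.43% were at least 2-fold higher. Slc1a4, with the motif across its start, stood at -0.13, outside the range of those 7 genes. A match is a string of letters in a window and was not measured as a binding site here.

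The matches of the 3 genes at least 2-fold higher, of Asns and of Slc7a7, which has 2 copies, are printed beside those of the transporters so that the copies can be compared. All are from GRCm38.p6 on the strand of the gene, with the match in capitals. The copies in Atf3, Vldlr and Nupr1 have the same letters, TTGCATCA, as the second copy in Slc7a11 and the copy in Slc1a4. They begin at positions -110, -200 and -110. The windows lie at chr1:191183425-191183454 on the minus strand, chr19:27216809-27216838 on the plus strand, chr7:126625562-126625591 on the minus strand, chr6:7693214-7693243 on the minus strand for Asns and chr14:54417927-54417956 and chr14:54418067-54418096 on the minus strand for Slc7a7. The first Slc7a7 copy runs across the start and the other begins at position -141.
Atf3: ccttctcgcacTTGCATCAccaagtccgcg
Vldlr: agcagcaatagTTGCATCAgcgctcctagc
Nupr1: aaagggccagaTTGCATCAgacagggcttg
Asns: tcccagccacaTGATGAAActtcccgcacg
Slc7a7, copy at the start: gacctagaagcTGATGCAAcagcttccccg
Slc7a7, copy at -141: ccgcttgggctTGATGAAAggttcactggg

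**Figure D3:**
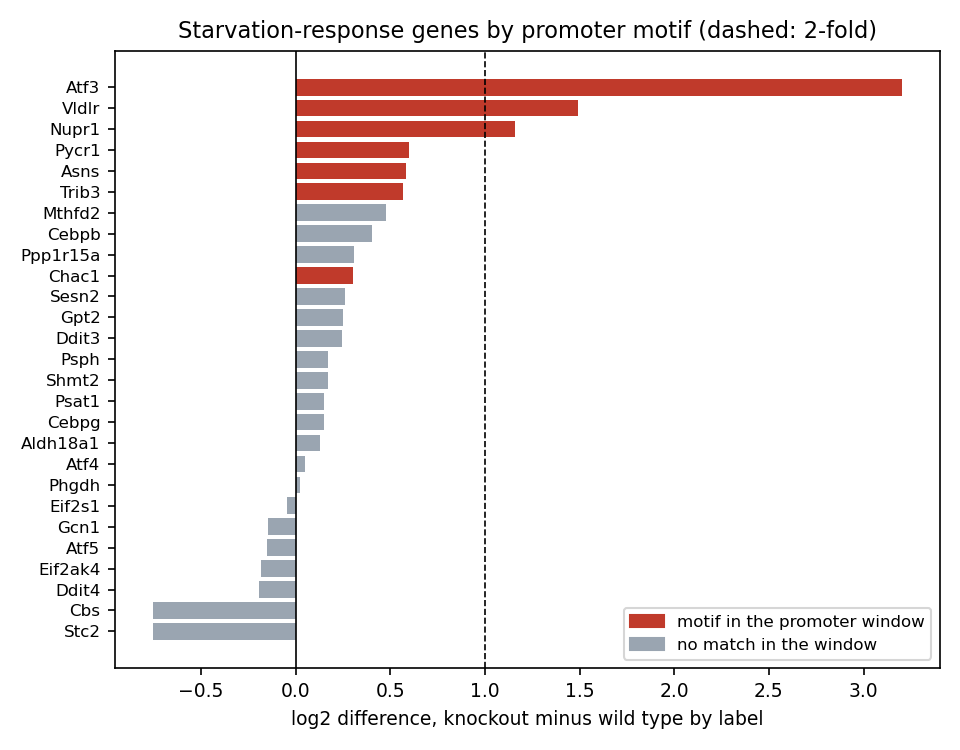
Log2 difference, knockout label minus wild type label, of the 27 detected shortage-response genes with a promoter window, as bars from 0, coloured by whether the window holds the motif. The 6 highest bars, from Atf3 at 3.20 to Trib3 at 0.57, are genes with the motif, and Chac1 at 0.30 is the other one. Ndrg1 (0.77), Eif4ebp1 (0.38), Cth (0.25) and Ppp1r15b (0.05) were detected but had no window and are not shown.

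Genes that use the imported amino acids were mostly close to level, like the transporters themselves. In the list of amino acid and polyamine metabolism 13 of 28 detected genes were higher and 15 lower, beside 41.6% and 58.4% of all detected genes. The median of this list was -0.02, and cyclic loess scaling turned it to 0.04. Asns, Gpt2, Mthfd2, Phgdh, Psat1, Psph and Shmt2 are also in the shortage-response list. All of these shared genes were above 0, from 0.02 (Phgdh) to 0.58 (Asns), so the 2 lists are not independent. Il4i1, an oxidase of phenylalanine, was at least 2-fold higher (222 and 694 units), as 3.62% of all detected genes were. Odc1, the first enzyme of polyamine synthesis from the ornithine that arginine yields, stood at -0.10 ± 0.08 over 4 probes. Glud1, which turns glutamate into 2-oxoglutarate, stood at 0.46 ± 0.02 over 2 probes. In the list of glutathione and NRF2 genes, downstream of the cystine carried by Slc7a11, 10 of 20 detected genes were higher and 10 lower. In that list 0 reached 1.5-fold, against 11.9% of all detected genes, of which 41.6% were higher. Gclc, the rate-limiting enzyme of glutathione synthesis, stood at -0.32 and Nfe2l2, which encodes NRF2, at 0.24.

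Some regulators known to act on carriers stood further from 0 than any of the transporters. Of 16 detected regulators 11 were higher and 5 lower, with a median of 0.10, and 3 were at least 2-fold higher (1 with an offset of 16 units added to every signal). The 10 regulators that reached 500 units had a median of 0.07, with 6 higher. Over all detected genes 41.6% were higher and 3.62% at least 2-fold higher. Myc, which is known to raise Slc7a5, Slc3a2 and Slc1a5 in activated T cells, read 4335 and 6279 units, a difference of 0.50. The 3 genes named with it stood at 0.15, 0.15 and -0.12. Hif1a, the oxygen-sensitive factor, stood at 1.12 ± 0.11 over 2 probes. The brighter Hif1a probe (1450 and 3050 units) sat on a late-numbered spot, and the other read only 17.4 and 40.6 units. Irf4 stood at 1.04 (4650 and 9780 units) and Sgk1, a kinase that acts on carriers, at 1.08 from dim signals of 50.9 and 110 units. Nedd4l, a ubiquitin ligase of membrane carriers, stood at 0.59 and Batf at -0.06.

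**Figure D4:**
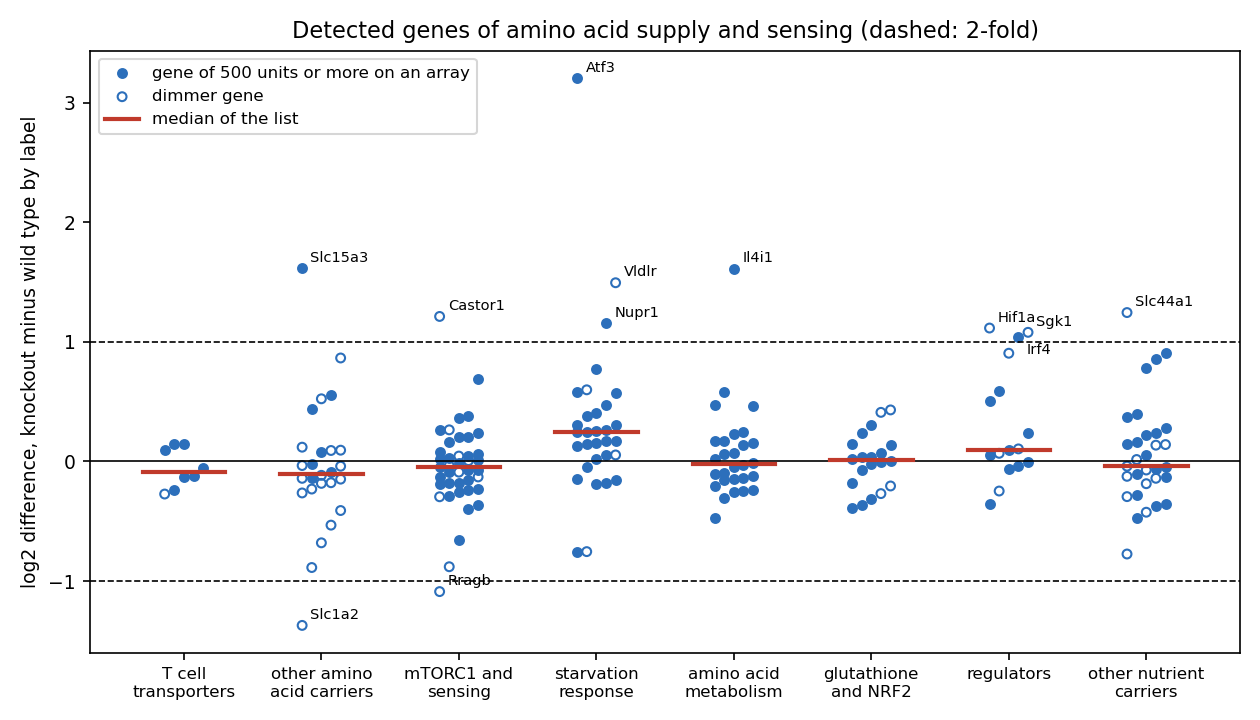
Log2 difference, knockout label minus wild type label, of the detected genes of 8 lists, with filled points for genes of 500 units or more on an array, open points for dimmer genes and a red bar for the median of each list. The 8 T cell transporters lie within 0.3 of 0. Each other list except that of glutathione and NRF2 has at least 1 gene past the dashed 2-fold lines, among them dimmer genes. The lists are of unlike size, with 16 to 41 detected genes in the others. Of all detected genes 3.62% were at least 2-fold higher and 1.52% lower, and of genes of 500 units or more 1.98% and 0.234%.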

How the data were processed

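One-colour (Cy3) arrays of 2 libraries were compared, 1 per genotype by label. Per the submitters' processing notes they were read with Agilent Feature Extraction 11.5.1.1. The authors deposited 1 file per array, with an intensity for each spot on a linear scale in a column headed Raw. Whether background was corrected is a point not given in the sources used here. No flags, background values or control spots were used. A second table by the authors holds the same signals times a constant (2.27 and 2.26), and served as an alternative.

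Signals were put on the log2 scale, averaged over each probe's spots and scaled to the 75th percentile over probes. The floor was the median probe. A probe below it on 1 array was set to the floor there, and a probe below it on both was left out. Genes took the mean of their remaining probes. Spots were named from the platform annotation, which gives 1 symbol for 31465 spots and none for 27840. Symbols were updated through a RefSeq table of GRCm38.p6, by accession for 29050 spots, by symbol for 2061 and by synonym for 349, while 5 kept their name. The files name no genome build, so gene coordinates are not given. Promoter windows are from RefSeq, GRCm38.p6.

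With 1 array per genotype no test was run and no p-value is given, and the number of arrays limits the precision. Genes were counted at a 2-fold difference. The members and the gene lists were chosen with earlier results of these data known. By rule, the text could name the members, Gfi1, every carrier of amino acids past 2-fold, and of each other list the genes past 2-fold and the extremes; further genes were picked once values had been seen. The alternatives were other scalings (median, quantile, cyclic loess with span 0.3, none), the authors' table, floors at the 25th and 75th percentile, probes detected on both arrays, no filter, the median probe or the brightest one, an offset of 16 units, no spots above feature number 50000, and thresholds of 1.5-fold and 3-fold. The steps were tested on simulated data for the comparison of 1 array against 1, where 13165 genes were detected. Of 49 genes altered 3-fold 93.9% passed 2-fold, of 48 altered 1.5-fold 2.08%, and of 12969 unaltered genes 0.12%. The simulated noise was that between replicate spots, with none between cultures. The 0.12% is therefore not a rate of false calls between 2 cultures. The software was pandas 2.3.3 and numpy 2.4.6 under Python 3.11.15, with statsmodels 0.14.6 for loess and matplotlib 3.10.9 for plots.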

Additional observations from a re-analysis of the deposited data

How the results depend on the processing

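No paired analysis was possible because each genotype has 1 array and the labels carry no replicate numbers. For the same reason no replicate could be left out. Under the 13 alternatives to scaling, source, floor, filter, probe summary, offset and late-numbered spots, and at 1.5-fold and 3-fold, the counts of members past the threshold stayed at 0 in either direction. The members' median ranged from -0.10 to -0.03. All 104 recomputed values of member genes moved by less than a set spread, and the largest size in any of these settings was 0.29. That spread was the SD over a gene's own probes or the median such SD over genes, 0.096, whichever was larger. Part of this outcome was fixed in advance. Detected members with a single probe lay above every floor on both arrays, so other floors, filters and probe summaries could not change their values. Slc1a5 moved by more than its own SD of 0.02, from -0.12 to -0.06 with cyclic loess. Signs held for 7 of the 8 detected members, and Slc38a2 passed 0 with cyclic loess. Slc7a5 ranged from 0.14 to 0.28, Slc3a2 from 0.14 to 0.20, Slc7a6 from -0.28 to -0.21 and Slc38a1 from -0.29 to -0.18. Of 672 recomputed values of other named genes 30 moved by at least the spread set in that way, and none that was past 2-fold changed sign. Slc1a2 stood at -0.58 with no filter, when its 2 undetected probes entered, and with the floor at the 75th percentile Vldlr stood at 0.33, Castor1 at 0.47, Slc7a7 at 0.55 and Slc16a10 at -0.52. With an offset of 16 units Rragb stood at -0.78, Hif1a at 0.88 and Sgk1 at 0.88. The median of the other carriers turned to 0.03 with the higher floor and to 0.08 with no filter. The median of the shortage-response list ranged from 0.21 to 0.31.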

Other observations

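Among solute carrier genes outside the 9 transporters, chosen after the values were seen by the pattern of their symbols, 221 were detected and their median difference was -0.02. Past a 2-fold difference, 5 were higher and 5 lower under the knockout label, which is 2.26% each way against 3.62% and 1.52% of all detected genes. Among the 79 that reached 500 units on an array, Slc15a3 was the single gene past 2-fold. The other 9 past it were all dimmer than 500 units. Slc8a1, a sodium and calcium exchanger, read 388 and 4.57 units on a late-numbered spot, at least 27.2-fold lower against the floor. Slc10a2, Slc14a2 and Slc39a9 also rested on late-numbered spots alone. Slc44a1, a choline carrier, had 3 detected probes that disagreed (1.24 ± 1.43). Slc1a2 is described above, and Slc5a11 stood at -1.25 (145 and 62.2 units) and Slc15a2 at -1.19 (46.3 and 20.7 units). Slc52a3, a riboflavin carrier, read 13.0 and 32.2 units and was below the floor under the wild type label.

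Of the carriers of other nutrients, 31 were detected with a median of -0.04, which loess scaling turned to 0.03. The glucose carriers Slc2a1 (3590 and 4760 units, 0.37) and Slc2a3 (1080 and 2070 units, 0.91) were higher under the knockout label, whereas the transferrin receptor gene Tfrc stood at -0.13 ± 0.13 over 3 probes and the folate carrier gene Slc19a1 at -0.28 ± 0.01 over 2 probes. Slc39a10, a zinc importer, read 446 and 785 units, and Mfsd2a, a lipid carrier, 1360 and 2520 units. These values come from 1 array per genotype and no test was possible.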
